A study of Drosophila melanogaster with 3 samples.

Results

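Among the peaks of GFP-tagged Achaete (Ac) in Drosophila melanogaster embryos, 654 of 2756 (23.7%) had their summit inside a protein-coding gene, in no annotated exon, and at 501 to 5000 bp from the nearest protein-coding transcription start. These intronic peaks near a start were chosen by position alone, from the deposited optimal list on release 6 of the fly genome (dm6) and the RefSeq annotation. The assay was ChIP-seq, in which chromatin fragments bound by a protein are pulled down and sequenced. It used an antibody against GFP in a transgenic line that stably carries Ac with GFP at its C terminus. Whole embryos of both sexes, aged 0 to 8 hours, gave 3 biological replicates of 1 group, with no second genotype, treatment or age. Whole embryos mix all cell types of the first hours of development, so a peak cannot be placed in a cell type. Separate embryo collections are not named in the labels, so the spread of the replicates may be partly technical.

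Ac is a proneural basic helix-loop-helix protein. It pairs with the broadly expressed partner Daughterless (Da), binds short DNA sites called E-boxes, and gives ectodermal cells the competence to become neural precursors. In flies, introns close to the start of a gene often carry enhancers, and the Ac targets described in sensory organ precursors include genes of Notch signalling and of precursor identity.

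The sequences that show the motif results most directly are those among the strongest intronic peaks that carry an Ac/Sc-Da E-box, GCAGCTG or GCAGGTG on either strand, within 100 bp of the summit. The 5 below are 201 bp long, read from the release 6 assembly of RefSeq (dm6) on the plus strand, and centred on the summit. Each is named by the gene that holds it, and capitals mark the E-box. Where the match reads GCAGCTGC, both strands match and the site counts once.
brat, chr2L:19155072-19155272: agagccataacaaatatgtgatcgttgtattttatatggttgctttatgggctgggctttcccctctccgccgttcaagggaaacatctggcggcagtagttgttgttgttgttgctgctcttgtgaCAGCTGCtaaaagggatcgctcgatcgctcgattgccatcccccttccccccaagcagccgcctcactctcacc
msi, chr3R:25596486-25596686: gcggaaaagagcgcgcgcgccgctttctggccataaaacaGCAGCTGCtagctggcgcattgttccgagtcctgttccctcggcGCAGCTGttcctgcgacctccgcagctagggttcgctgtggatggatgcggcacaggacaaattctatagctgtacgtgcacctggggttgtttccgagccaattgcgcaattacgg
CG32264, chr3L:3785128-3785328: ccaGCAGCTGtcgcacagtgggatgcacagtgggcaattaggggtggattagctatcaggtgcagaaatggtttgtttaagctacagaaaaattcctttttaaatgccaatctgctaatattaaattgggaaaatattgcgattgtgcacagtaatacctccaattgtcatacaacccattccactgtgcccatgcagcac
CG8745, chr3L:13865603-13865803: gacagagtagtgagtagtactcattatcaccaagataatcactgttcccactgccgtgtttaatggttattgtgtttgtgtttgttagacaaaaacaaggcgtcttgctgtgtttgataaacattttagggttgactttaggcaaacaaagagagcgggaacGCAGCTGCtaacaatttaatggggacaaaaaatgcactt
Ndfip, chr3L:17653229-17653429: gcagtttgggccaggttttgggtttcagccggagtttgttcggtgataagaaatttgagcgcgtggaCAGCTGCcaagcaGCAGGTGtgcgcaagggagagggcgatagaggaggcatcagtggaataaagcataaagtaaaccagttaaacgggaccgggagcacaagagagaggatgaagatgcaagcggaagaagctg
The CG32264 site lay 94 bp left of the summit, near the edge of the window. The msi peak had 2 sites, 57 and 13 bp left of the summit, and the Ndfip peak had 2, 30 and 17 bp left of it. The brat site lay 30 bp to the right of the summit, and the CG8745 site 65 bp to the right.

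The strongest intronic peaks of all, in cno and ush, had no such E-box in this window, and their sequences are given for contrast, with no capitals because no site was found.
cno, chr3R:5215424-5215624: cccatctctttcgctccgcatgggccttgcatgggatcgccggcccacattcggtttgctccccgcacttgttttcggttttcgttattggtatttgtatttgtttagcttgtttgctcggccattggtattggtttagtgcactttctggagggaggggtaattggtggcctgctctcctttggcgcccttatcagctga
ush, chr2L:480981-481181: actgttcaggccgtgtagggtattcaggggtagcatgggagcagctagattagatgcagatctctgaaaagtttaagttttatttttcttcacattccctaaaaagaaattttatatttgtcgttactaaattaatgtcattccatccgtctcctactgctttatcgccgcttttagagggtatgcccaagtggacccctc
No match says only that these letters are not in this window. The cno window does hold the shorter core CAGCTG near its right end, which is searched as a motif of its own below.

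The optimal list was the 2756 strongest regions of the list called on all 3 replicates together, ranked by the authors' signal value, with rank 1 the strongest. Each replicate was represented by its own 2756 strongest regions, called its top regions. An optimal peak was called present in a replicate when that replicate had a top region with a summit within 150 bp. Replicates 1, 2 and 3 differed in how many regions reached a q value of 0.05 (3453, 9954 and 7898 regions), and the sequencing depth behind these numbers is unknown.

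Sequence that met the position rule made up 22.1 Mb, or 16.5% of the chromosome arms, and held the 654 peaks at 29.6 per Mb. Intronic sequence farther than 5000 bp from a start held 354 peaks at 11.8 per Mb. Intergenic sequence held 568 at 14.7 per Mb, and exons away from starts held 155 at 5.56 per Mb. Sequence within 500 bp of a start, called promoter here, held 1025 at 66.8 per Mb. The intronic sequence near starts thus held peaks more densely than the arms as a whole, at 20.6 per Mb, and less densely than promoters. The order was set by position alone and was not tested. The same rule gave 629 regions in replicate 1, 646 in replicate 2 and 644 in replicate 3 when applied to each replicate's own top regions. Those counts were 22.8%, 23.4% and 23.4% of the top regions (mean 23.2 ± 0.337%, SD, n = 3), or 28.9 ± 0.42 per Mb. The spread between replicates was therefore small beside the differences in density between these sequence classes. By arm, the density of intronic peaks near a start ran from 27.4 per Mb on X to 33 per Mb on 2R among the large arms, and the small arm 4 held 3.

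The distance to the nearest start had a median of 1890 bp, with quartiles at 1046 and 3113 bp. There were 153 peaks at up to 1000 bp, 197 more at up to 2000 bp, 126 more at up to 3000 bp, 98 more at up to 4000 bp and 80 at up to 5000 bp. The limits cut through a continuous range. The closest peak lay 505 bp from a start and had rank 730, and 37 peaks lay within 100 bp of that lower limit. Just outside it, the intronic summit next in distance lay at 487 bp, with rank 729. At the upper limit, a jumu peak lay at 5000 bp with rank 299, and the nearest intronic peak beyond lay at 5002 bp with rank 202.

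In 582 peaks (89%) the nearest start belonged to the gene that held the summit. The summit lay downstream of that start in 416 and upstream of it, before an internal start of the same gene, in 166. In 72 peaks the nearest start belonged to another gene. The second strongest peak is of this kind: it lay in the first intron of ush but 1393 bp upstream of the start of cbt. For 502 peaks (76.8%, exact 95% interval 73.3 to 79.9%) the summit was in the first intron of at least 1 transcript, and for 335 (51.2%) it was so in every transcript that spans it. The distance limit favours first introns, so these shares describe the peaks and were not tested. The introns had a median length of 7511 bp, from 61 to 110416 bp, taking for each summit the shortest intron that holds it among the host gene's transcripts. The start nearest to the summit itself had an optimal summit within 500 bp in 156 peaks (23.9%). Another optimal summit lay within 1000 bp of 132 peaks and within 5000 bp of 380.

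**Figure D1:**
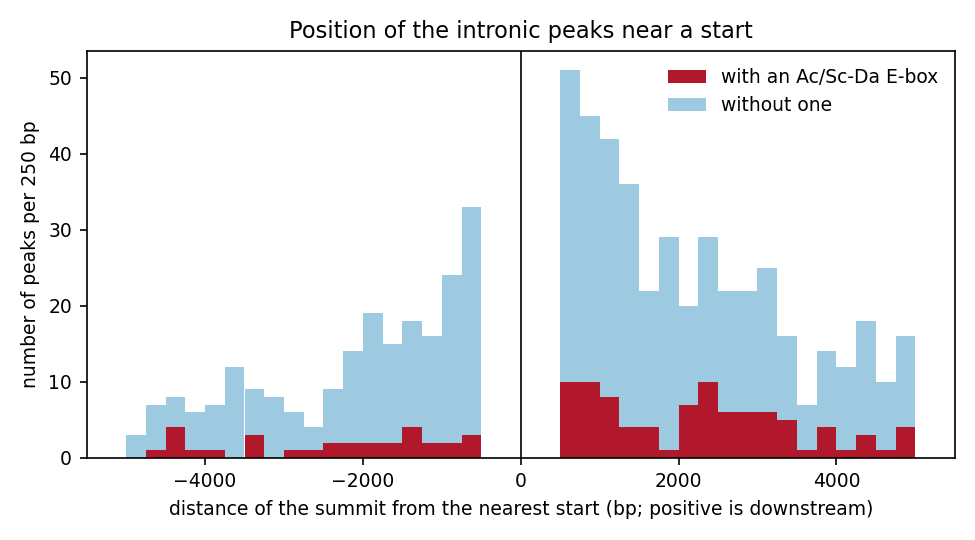
Number of intronic peaks per 250 bp (vertical axis) by the distance of the summit from the nearest protein-coding start in bp, positive downstream and negative upstream, with peaks that carry the Ac/Sc-Da E-box near the summit in red and the others in blue. Of the 654 peaks, 436 lie downstream, and the gap within 500 bp on either side is the rule itself.

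The 25 strongest intronic peaks had ranks 6 to 110 in the optimal list, and all 25 were present in every replicate. They were picked by strength in a list called on the same 3 replicates, which makes such presence likely, so it is no separate support. The strongest lay in cno, which encodes Canoe, a protein that links cell junctions to actin, and ranked 17, 6 and 5 in replicates 1, 2 and 3. The ush peak ranked 6, 8 and 22. U-shaped, the product of ush, is a cofactor of GATA factors that limits proneural activity in the notum. The peak in cpo, which encodes an RNA-binding protein of peripheral nervous system cells, ranked 50, 7 and 8. These peaks were among the 50 strongest regions of every replicate.

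Next came peaks in CG11050, with ranks 27, 12 and 21, and in Rbfox1, a splicing regulator, with ranks 26, 23 and 30. The peak in Trl, the gene of GAGA factor, ranked 24, 39 and 16. The other hosts among the 25 were CG32772, CG9663, CG5953, Lk6, Tlk, Mob2, babos, CG31635, brat, InR, stet, HmgZ, simj, jing, CG12769, nkd, for, ImpL2 and edl. They include kinases and signalling genes: InR encodes the insulin receptor, ImpL2 a secreted protein that binds insulin-like peptides, for a cGMP-dependent protein kinase, and nkd an antagonist of Wingless signalling.

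In 14 of the 25, all 3 replicate ranks were within the first 100. By difference in rank the replicates were farthest apart for edl, a regulator of the ETS factors Pointed and Yan, which ranked 570 in replicate 1 against 77 and 60 in replicates 2 and 3. The brat peak, in a gene that restrains growth in neuroblast daughters, likewise ranked 292 in replicate 1 and 30 and 83 in the others. In nkd, replicate 3 was the one apart, with rank 348 beside 111 and 92. Of the 25, 4 (16%) carried the E-box, in CG5953, brat, jing and edl, beside 17.9% of all optimal peaks. The brat, jing and edl peaks ranked lowest in replicate 1, but so did peaks without the site, such as those in cno and cpo. The summit was downstream of the nearest start in 13 and upstream in 12.

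**Figure D2:**
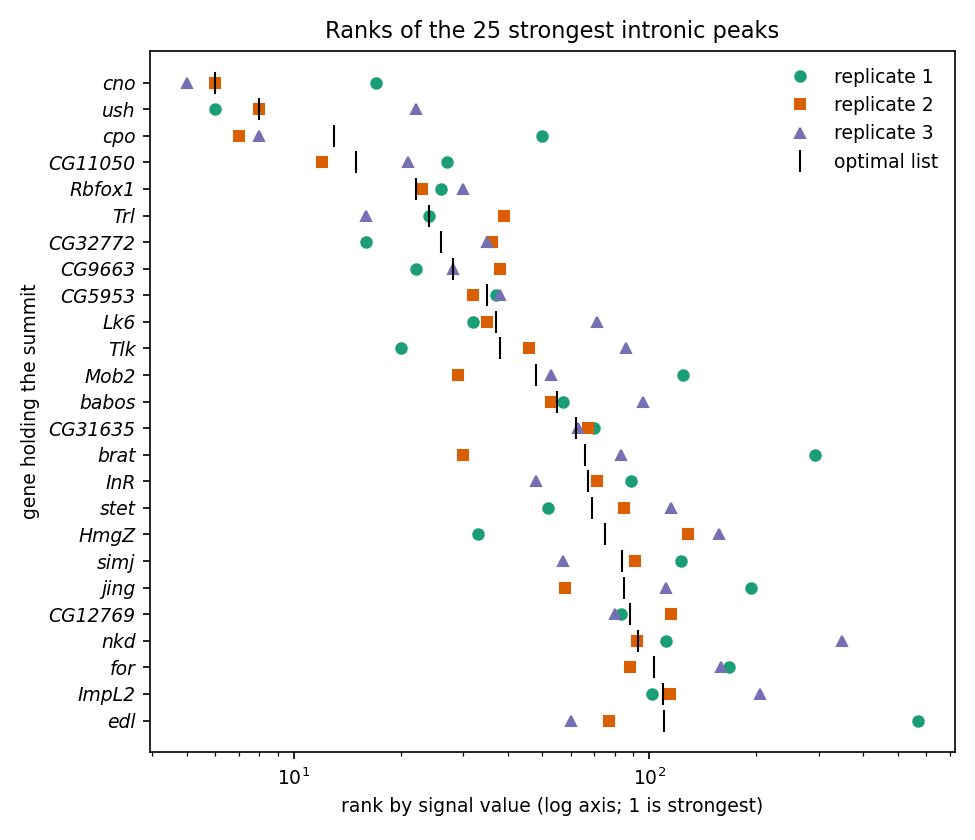
Rank by the authors' signal value (horizontal log axis, 1 is strongest) of the 25 strongest intronic peaks, one row per peak named by the gene that holds it, with a symbol for each replicate and a black bar for the optimal list. The cno and ush peaks stay within rank 22 in every replicate, and the edl and brat peaks spread widely, from 60 to 570 and from 30 to 292.

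Of the 654 peaks, 330 (50.5%, exact 95% interval 46.6 to 54.4%) were present in all 3 replicates, 205 in exactly 2, 111 in 1 and 8 in none. Over the whole optimal list the share in all 3 was 47.5%. The other 2102 optimal peaks had 46.5%, and the difference of 3.93 percentage points (95% interval -0.448 to 8.3) did not pass Fisher's exact test, two-sided, p = 0.0805. With a summit tolerance of 75 bp the difference was 5.95 points (p = 0.00697, same exact test) and with 300 bp 5.47 points (p = 0.0155, same exact test), so the call depends on the tolerance. By class, farther intronic peaks had 45.8%, promoter peaks 47.8% and intergenic peaks 46.7%, and the intronic peaks near a start did not differ from any of them past the threshold (adjusted p = 0.406 for each, Fisher's exact test over 5 added comparisons). P-values over peaks here treat each peak as a unit, and peaks of the same replicates are not independent samples. Per replicate, 71.7%, 85.2% and 74.2% of the intronic peaks were present in replicates 1, 2 and 3, against 70.8%, 83.4% and 69.9% of the other optimal peaks (means 77 ± 7.17% and 74.7 ± 7.57%, SD, n = 3 each). The intronic peaks were higher in 3 of 3 replicates, each time by less than the SD between replicates. That SD does not measure the spread of the paired differences, which were not tested.

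Among the intronic peaks, replicate support and rank both differed with width. The 314 peaks under 390 bp wide were present in all 3 replicates in 78.3% of cases and had a median rank of 702. The 314 at exactly 390 bp were so in 21% and had a median rank of 2000. Presence requires a place among a replicate's strongest regions, so this difference cannot be separated from that in rank. Presence by width is not given here for the other optimal peaks, whose median width was also 390 bp. It may therefore be a trait of the whole list. The split was chosen after its values were seen and was not tested. Of the 390 bp peaks, 6 were among the 689 strongest peaks of the list, against 154 of the narrower ones. The 5 weakest lay in Scr, CG13917, sktl, ths and mam, with ranks 2739 to 2754, all 390 bp wide. The Scr and CG13917 peaks were in no replicate's top regions, with replicate ranks of 8348, 2789 and 2975 for Scr and 3208, 2915 and 5155 for CG13917.

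The 689 strongest peaks (25% of the list) held 180 of the 654 intronic peaks near a start (27.5%) and 70 of 354 intronic peaks farther than 5000 bp (19.8%). The difference of 7.75 points (95% interval 2.21 to 13) passed Fisher's exact test, two-sided (adjusted p = 0.0222 over 3 comparisons). The 689 weakest peaks also held a larger share of the intronic peaks near a start, 23.9% against 20.3% of those farther away. This difference at the weak end was not tested. Promoter peaks had 26.9% among the 689 strongest, 0.596 points under the intronic peaks (95% interval -3.72 to 5.01, adjusted p = 0.822, same exact test). Intergenic peaks had 22.7%, 4.81 points under (95% interval -0.0777 to 9.63, adjusted p = 0.0838, same exact test). The difference from farther intronic peaks did not pass in any single replicate: by replicate rank the difference was 4.78, 4.02 and 1.31 points in replicates 1, 2 and 3 (adjusted p = 0.161, 0.176 and 0.894, Fisher's exact test). Nor did it pass among the peaks present in both other replicates when 1 was left out, with 2.63, 3.37 and 3.71 points without replicates 1, 2 and 3 (adjusted p = 0.733, 0.669 and 0.475, same exact test).

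The Ac/Sc-Da E-box, the site bound by dimers of Da with Ac or its paralogue Scute, occurred within 100 bp of the summit in 122 of the 654 peaks (18.7%, exact 95% interval 15.7 to 21.9%). In windows of the same width 1000 bp to either side it occurred in 7.26%, a ratio of 2.57. The site was in the centre only in 109 peaks and in the right flank only in 34 (exact McNemar test, two-sided, adjusted p = 4.66e-09 over 20 motifs). In each replicate's own top regions of this kind the share was 12.9%, 19.5% and 19.9%, against 6.76%, 7.12% and 8% in the flanks, a ratio of 2.38 ± 0.427 (SD, n = 3). Replicate 1 had the lowest share and all 3 replicates lay above their flanks. The flanks differ from the centre in place and composition: 20.7% of flank centres lay in an exon, 22.7% within 500 bp of a start, and the median GC content was 41 to 41.8% in the flanks and 38.3% at the summits. The part of these differences in the result was not tested.

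Over all optimal peaks the share with the E-box was 17.9%, and its ratio to the flanks was 2.42. Beside the ratio of 2.57 in intronic peaks near a start, it was 2.83 in intronic peaks farther away. Promoter peaks had a ratio of 1.79 and intergenic peaks 3.04. The 18.7% of intronic peaks near a start were set against 18.4% of intronic peaks farther away, a difference of 0.293 points (95% interval -4.89 to 5.15, adjusted p = 1, Fisher's exact test). The difference from promoter peaks, of which 15.1% had the site, was 3.53 points (95% interval -0.105 to 7.31, adjusted p = 0.378, same exact test). That from intergenic peaks, with 20.1%, was -1.42 points (95% interval -5.89 to 3.01, adjusted p = 0.936, same exact test). All 3 tests were two-sided and adjusted over 60, and these intervals leave room for differences of several points. The form GCAGCTG was in 100 intronic peaks (15.3%, against 13.2% of all peaks) and GCAGGTG in 28 (4.28%, against 5.62%), with both in 6.

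Where the site was present, its centre lay a median of 29 bp from the summit, within 25 bp in 56 of 122 peaks and within 50 bp in 85. A single site was found in 104 peaks, 2 in 14 and 3 in 4. Those with 2 or more made up 2.75% of the intronic peaks near a start, close to the 2.58% of all optimal peaks. The share was 3.11% of intronic peaks farther away, 2.54% of promoter peaks and 1.58% of intergenic peaks. The peaks with 3 sites lay in nvy, Sxl, ImpL2 and sick. Nervy, the product of nvy, is a corepressor of the ETO family described in sensory organ precursors, and its peak was in all 3 replicates, with ranks 882, 539 and 417. Sxl is the master switch of sex determination, and its peak ranked 377 and 1068 in replicates 2 and 3 and had no counterpart in replicate 1. The ImpL2 peak ranked 11567, 1847 and 506, and the sick peak 2192, 1826 and 1947. All 18 peaks with 2 or more sites lay downstream of a start of their own gene. Of the 104 with 1 site 73 lay downstream of the nearest start, and of the 532 with none 345 did. This split was chosen after its values were seen and was not tested.

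**Figure D3:**
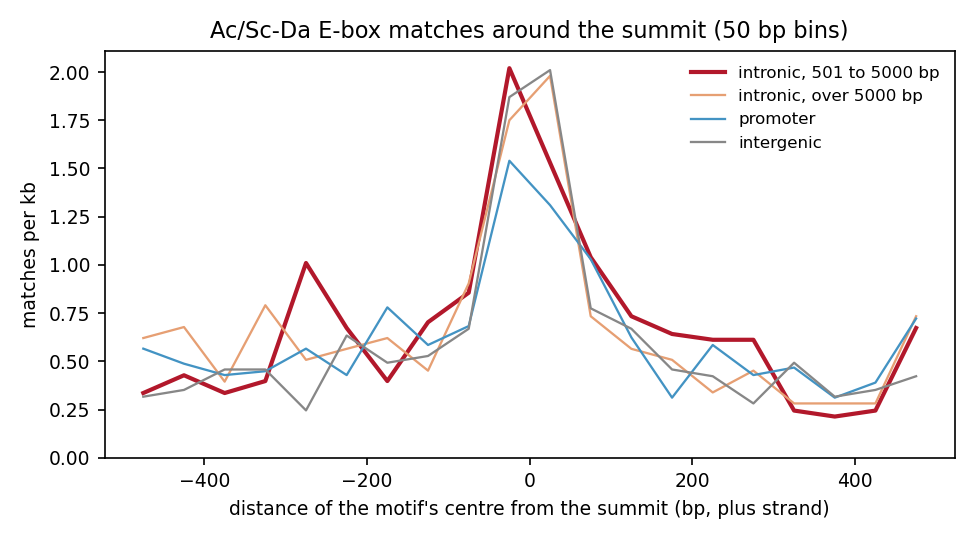
Matches of the Ac/Sc-Da E-box per kb (vertical axis) in 50 bp bins by the distance of the match from the summit in bp, for the 654 intronic peaks near a start (thick red), intronic peaks farther away, promoter peaks and intergenic peaks. The intronic peaks reach 2.02 and 1.53 matches per kb in the bins on either side of the summit, and the other classes peak there too.

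The strongest 163 intronic peaks carried the E-box in 36 cases (22.1%) and the weakest 163 in 29 (17.8%), adjusted p = 0.406 over the same 5 comparisons (Fisher's exact test, two-sided). Peaks with the site were in all 3 replicates in 46.7% of cases and peaks without it in 51.3% (adjusted p = 0.406, same exact test). By distance the share with the site was 16.3%, 13.7%, 27.8%, 20.4% and 18.8% from the nearest bin to the farthest. The shares did not rise or fall steadily with distance, and over all optimal peaks the share was 17.9%. The bins up to 2000 bp and up to 3000 bp had the lowest and the highest share. Their exact 95% intervals, 9.23 to 19.3% and 20.2 to 36.5%, did not overlap. This pair was picked after the values were seen, and the bins were not compared by a test. No split by distance is given here for other peaks. In all 5 bins the share with the site exceeded the share in the flanks, which ran from 5 to 9.18%.

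**Figure D4:**
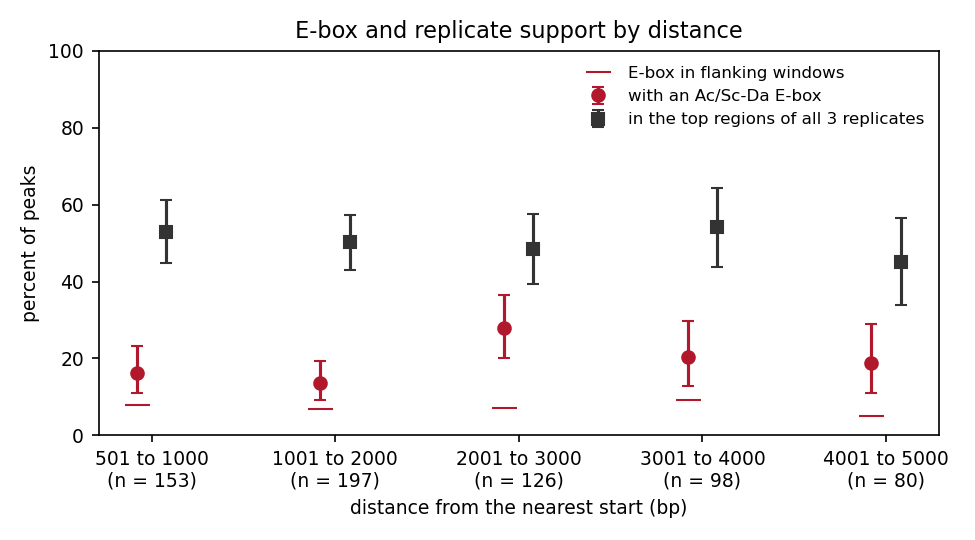
Percent of intronic peaks (vertical axis) that carry the Ac/Sc-Da E-box near the summit (red points) or in the flanking windows (red dashes), and percent present in every replicate (black squares), by distance from the nearest start in bp, with exact 95% intervals on the points and squares. Each red point lies above its dash, and presence in every replicate stays between 45 and 54.1%.

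Of the 26 intronic peaks wider than 390 bp, 15 carried the E-box (57.7%, exact 95% interval 36.9 to 76.6%), against 107 of the 628 others (17%). In the rest of the optimal list, peaks over 390 bp had it in 30 of 63 cases (47.6%) and the others in 16.7%. The wide intronic peaks had a median GC content of 48.8% and a median rank of 306, and their windows are as long as those of narrow peaks. Some are summits of 1 broad region: 12 of the 26 share both bounds with another peak, and the 26 have 20 distinct bounds. Taking the strongest summit of each, 12 of the 20 had the site. The split by width was chosen after its values were seen and was not tested.

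On the X chromosome 12 of 122 intronic peaks had the E-box (9.84%, exact 95% interval 5.19 to 16.6%), against 110 of 532 on the autosomes (20.7%, 17.3 to 24.4%). In the rest of the list the shares were 15.9% on X and 17.9% on the autosomes. Intergenic peaks had 9.62% on X and 21.1% on the autosomes, while intronic peaks farther away had 21% and 17.8%. The X peaks were narrower, with a median of 268 bp against 390 bp. This split was also chosen after its values were seen and was not tested.

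Of the 20 motifs searched, 3 (15%) were more frequent at the summits of the intronic peaks than in the flanks: the Ac/Sc-Da E-box and the E-box cores that it contains, so these 3 overlap. CAGCTG, read the same on both strands, was in 20.5% of windows against 8.72% of flanks (ratio 2.35, adjusted p = 3.62e-08, exact McNemar test), and CAGGTG in 12.8% against 5.81% (ratio 2.21, adjusted p = 6.46e-05, same exact test). Over all optimal peaks the shares were similar, 19.4% for CAGCTG (ratio 2.11) and 12.8% for CAGGTG (ratio 1.77). In the intronic peaks near a start, 4 motifs had p below 0.05 by the same exact test without adjustment. The additional one was the GATA site, AGATAAG or TGATAAG, with 9.94% against a mean of 6.73% in the flanks. It was in 40 right flanks and 48 left flanks. With the right flank its adjusted p was 0.0719 (same exact test), and it was not called with the left flank either. CATATG had 11% against 6.57% (adjusted p = 0.256 with the right flank and 0.00109 with the left, same exact test), so its call depends on the side; the left flank was added after seeing the data.

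Set against promoter peaks, 3 of the 20 motifs (15%) differed by Fisher's exact test. CATATG was in 11% of intronic and 5.76% of promoter peaks (adjusted p = 0.00361, exact test), and the GATA site in 9.94% and 5.76% (adjusted p = 0.0417, same exact test). The DNA replication-related element (DRE), TATCGATA, a core promoter site of housekeeping genes, was in 1 of 654 intronic peaks (0.153%) and in 39 of 1025 promoter peaks (3.8%, adjusted p = 4.11e-06, same exact test). Over all optimal peaks the shares were 7.91% for CATATG, 7.66% for the GATA site and 1.52% for the DRE. No motif (0%) differed from intronic peaks farther away, with 0 at an unadjusted p below 0.05, and none (0%) from intergenic peaks, with 1. These tests were two-sided and adjusted over 60.

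**Figure D5:**
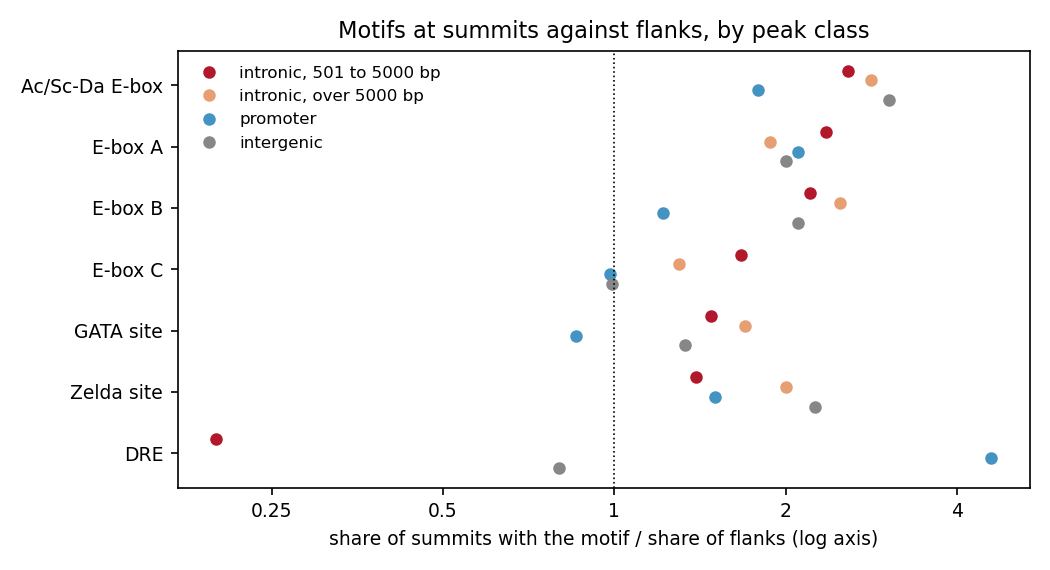
Ratio of the share of summits with a motif to its mean share in the flanks (horizontal log axis; the dotted line is 1) for 7 of the 20 motifs and 4 classes of peaks, with intronic peaks near a start in dark red. E-box A is the CAGCTG core, E-box B is CAGGTG and E-box C is CATATG. The upper 3 motifs are the ones called for those peaks, and the DRE point of intronic peaks over 5000 bp is missing because none had it.

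The summits fell in 493 of 13944 protein-coding genes (3.54%), of which 375 held 1 peak, 73 held 2, 33 held 3 and 12 held 4 or more. These genes were long, with a median of 17636 bp against 2161 bp for all protein-coding genes. On the arms examined, 9161 genes had any sequence that meets the rule, so 5.38% of those held a peak. The gene with most, CG1677, held 11 summits, and all 11 were nearest to starts of other genes, among them unc-119, brk, CBP and CG42780. Its peak upstream of brk, the gene of a repressor of BMP targets, lay at 805 bp and ranked 278, 773 and 1160 in replicates 1, 2 and 3. CG32816, which spans part of the achaete-scute complex, held 3: those of rank 532 and 950 lay upstream of ase, and that of rank 927 lay 3886 bp downstream of the start of sc and carried 1 E-box. In the replicates these ranked 973, 416 and 851, then 1377, 924 and 1045, and for the sc peak 12112, 605 and 793.

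Several genes carried clusters of their own. Btk, a Tec-family tyrosine kinase, Kdm4B, a histone demethylase, and shn, a zinc finger protein of BMP signalling, held 7 each. The shn peaks ranked between 990 and 2604, and none had the E-box. Kdm4B had it in 4 of its 7, at ranks 319, 557, 1117 and 2297. The summit of rank 557 also lay inside seq and CG17724, which overlap Kdm4B. The forkhead gene jumu held 4 downstream of its start, the stronger 2 with the E-box at ranks 299 and 410. The other genes with 4 or 5 were px, Traf4, ush, pico, Svil, CG43658 and tkv.

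Of 12 gene lists, the sensory organ precursor genes had the largest share of hosts over all their genes, 9 of 18 (50%), beside 3.54% of all protein-coding genes. Among genes with any sequence that meets the rule, the share was 52.9% in this list and 53.8% in the neuroblast list, beside 5.38% of all such genes. The list genes with such sequence have a median of 4556 bp of it, against 466 bp for all genes that have any. Per length, the list held 152 peaks per Mb of such sequence, the other lists with hosts 54.1 to 127, and all such sequence 29.6. No list was tested, and the lists were chosen with earlier results of these data known, so the order of the lists is a description only. Of the 20 peaks in the sensory organ precursor genes, Traf4 held 5, phyl 3 and edl 3. In phyl, an adaptor that promotes precursor fate, 3 summits lay 1240 to 2717 bp downstream of the start. The strongest ranked 352, 291 and 755 in replicates 1, 2 and 3. The next, with an E-box, ranked 249 in replicate 2 and had no summit within 150 bp in replicates 1 and 3. Both share the bounds of 1 region of 903 bp.

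The E-box was also found in both chn peaks, a zinc finger gene needed for the peripheral nervous system, at ranks 652 and 1498, and in the stronger neur peak, at rank 1382. neur encodes the ubiquitin ligase that activates Delta, and this peak ranked 17119, 1564 and 529 in the replicates but lay 524 bp upstream of the start of hyx. The edl gene held 3, with the E-box at ranks 110 and 888, and Traf4 held 5, the strongest with 2 sites at rank 314. The others of this list were cpo, nvy, pros and sv. No such site was found at the cpo peak, the stronger pros peak or the strongest phyl summit. Over all optimal peaks 17.9% had the site, and the share among the peaks of this list is not given here.

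Neuroblast genes held peaks in 7 of 21 (33.3%), although 13 of them have any sequence that meets the rule. grh, which encodes Grainyhead, a factor of late neuroblasts, ranked 157, 119 and 214 in the replicates. pros, the gene of the daughter-cell determinant Prospero, had its strongest at 689, 408 and 269. The rest were brat, nab, klu, nub and insc, the last of these through a summit in sktl, which overlaps it, at rank 2748. Notch pathway genes held peaks in 4 of 14 (28.6%): N, the receptor, mam, its coactivator, numb, its inhibitor, and neur. Their strongest was that of numb, at rank 1073, with replicate ranks 2661, 1192 and 478. That of N ranked 3928, 1550 and 3458. The symbol Dl, of the ligand Delta, had no match in the annotation, so that gene was not examined and is not among the 14.

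EGF receptor pathway genes held peaks in 6 of 17 (35.3%). aos, which encodes the secreted inhibitor Argos, ranked 141, 131 and 161 in the replicates. The ETS repressor gene aop had 2, the stronger with ranks 232, 353 and 383. The receptor gene Egfr and the ligand gene spi had weaker peaks with an E-box each, at ranks 1773 and 1649, and drk and edl made up the list. Segment polarity genes held peaks in 5 of 16 (31.2%). The strongest after nkd was in the Hedgehog receptor gene ptc, which ranked 313, 325 and 820. fz, fz2 and wg were the others.

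Axon guidance and neural adhesion genes held peaks in 9 of 22 (40.9%): fra, Fas3, Nrt, Fas2, NetB, Dscam1, Sema2a, Sema1a and sli. That in fra, a netrin receptor gene, ranked 253, 171 and 330, but lay nearest to the start of CG33752. Polycomb and trithorax group genes had 4 of 18 (22.2%), Trl, trx, ph-p and osa, with trx at 245, 398 and 526 in the replicates. Dorsoventral and BMP genes had 4 of 21 (19%), ush, tkv, Doc2 and Mad. tkv, the type I BMP receptor gene, held 4 peaks, the strongest at rank 1129.

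The lists without a peak had little sequence that could hold one. Of the 11 proneural genes and partners 3 have any, and none held a peak (0%), with ac, sc, l(1)sc and ase among those that have none. Of the 16 E(spl) and Bearded genes 1 has any, again with 0 hosts. Small-subunit ribosomal protein genes and odorant and gustatory receptor genes held none in 22 and 20 genes. They offered 3.79 and 6.65 kb that meet the rule, against 132 kb in the sensory organ precursor genes.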

How the data were processed

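ChIP-seq of Ac-GFP was measured in 3 replicates of 1 group, and chromatin was sheared to 200 to 800 bp, per the labels. The authors deposited lists of 30000 regions for each replicate and for all replicates together, made against a control alignment, and an optimal list thresholded by irreproducible discovery rate, per the file headers and notes. The program that called peaks and the cutoff applied were not given in the sources used here. The control alignment and the dm3 lists were not analysed here. The deposited signal value is a score with no stated scale, used only to rank regions within 1 list, and the deposited −log10 q value was used to count regions. Peak lists hold no read counts, so depth is unknown and exact binomial 95% intervals cover counting error only.

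Summits were set against the RefSeq annotation (FlyBase 6.54, 13944 protein-coding genes), and coordinates count from 1. A summit in an exon of any annotated gene was not intronic. Classes were promoter, exon, then intronic or intergenic. Density is peaks over the length of sequence of each class. Intervals of differences use Newcombe's method. Named genes are the hosts of the 25 strongest peaks and the 5 weakest, list genes that hold a peak (up to 6 per list by rank) and genes with 4 or more peaks; others, and list genes beyond 6, were named after their values were seen. Sequences are of the strongest peaks off arm 2R, with 1 not reported here. Of the list symbols, 3 were matched through a synonym and 2 had no match. Those 2, Dl of the Notch list and Sfrp of the segment polarity list, were not examined. Members, gene lists and motifs were chosen with earlier results of these data known. Fisher's and McNemar's exact tests were two-sided, with Benjamini-Hochberg adjustment at 0.05. The motif search, McNemar's test and the adjustment were tested on simulated data, and Fisher's test was not. Alternatives changed the distance limits, windows, flanks, tolerance, strength limit, exon definition and replicates. Python 3.11.15, scipy 1.17.1, numpy 2.4.6 and pandas 2.3.3 were used.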

Additional observations from a re-analysis of the deposited data

How the results depend on the processing

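Of the optimal peaks, 18.2% met the rule with a smallest distance of over 1000 bp, 12.7% with a largest distance of 2000 bp, 25% with starts of any gene type, 26% among the 1000 strongest peaks and 24.3% with exons of protein-coding genes only, an alternative added after seeing the data. It was 22.8% and 23.4% in the own top regions of replicates 1 and 3, and 24.4 to 25.2% when 1 replicate was left out. Presence in all 3 replicates exceeded that of the other peaks by 5.47 points at 300 bp and 5.95 at 75 bp, past the threshold that 3.93 missed.

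Among the 689 strongest peaks, the excess over farther intronic peaks was 6.97 points with distances over 1000 bp and 4.78, 4.02 and 1.31 points by rank in replicates 1, 2 and 3, none past the threshold, and 2.63 to 3.71 points when 1 replicate was left out. Against promoter peaks it turned to -0.18 with distances over 1000 bp, -4.12 by rank in replicate 1 and -4.2 to -2.4 without 1 replicate. Against intergenic peaks it ranged from -0.364 to 1.22 without 1 replicate. The causes were not tested.

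The ratio of the E-box at summits to flanks ran from 1.87 to 3.57 over the alternatives, each past the threshold. The number of motifs called was 5 with windows of 200 bp, adding the Zelda and GAGA motifs. The E-box difference from farther intronic peaks, never past the threshold, was -1.02 points with windows of 50 bp, -0.117 and -0.0546 in the own regions of replicates 1 and 2, and -0.29 to 2.61 without 1 replicate. That from intergenic peaks was 0.316 in the own regions of replicate 1. First introns held 51.2% when required of every transcript and 84% with a largest distance of 2000 bp. No paired analysis was possible because there is 1 group. Leaving out a replicate keeps the peaks present in both others, with positions still from all 3, so it is a subset rather than a new call. Without read counts, depth sets an unknown limit on every share.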
